A study of Mus musculus with 9 samples.

Results

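The genes described here carry long-chain fatty acids across the cell surface and through the cytosol, and they were read in brown fat, white fat and soleus, a postural muscle of the hind limb. They are the surface receptor gene Cd36, the fatty acid transport protein genes Slc27a1 to Slc27a5 and the fatty acid binding protein genes Fabp3, Fabp4 and Fabp5, taken by name and by their RefSeq accessions from a matrix of 17753 genes. Of the 9 listed genes, 6 had a row, 1 row each. Slc27a1, Slc27a3 and Slc27a5 were not analysed here. Each tissue had 3 RNA-seq libraries, 9 in all, and every library came from untreated wild-type C57BL/6J males 3 months old. The labels count 3 mice and do not say which libraries share one, so a p-value measures the spread between these libraries, and the depot of the white fat is not given in the sources used here.

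Long-chain fatty acids reach fat and muscle bound to albumin or are freed from lipoproteins at the capillary wall. CD36 at the cell surface takes them up, the FATP proteins encoded by the Slc27a genes both help uptake and join fatty acids to coenzyme A, and the small FABP proteins hold them in the cytosol on the way to storage or oxidation. Fabp3 encodes the heart and muscle form of these carriers, Fabp4 the adipocyte form and Fabp5 the epidermal form, which adipocytes, macrophages and endothelial cells also make. Brown fat and slow muscle burn fatty acids, whereas white fat mainly stores them.

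Values are the authors' FPKM, fragments scaled to transcript length and to the mapped fragments of the library, a scale on which levels of different genes can be set side by side. The summed FPKM of a library ran from 214066 to 353399. The files hold no read totals. From the gaps between low values, depth relative to white fat replicate 2, the shallowest library, was 1.39 to 3.58 in the others. Slow fibre genes marked soleus, with the 4 measured of 6 such markers summing to 21292 to 25420 FPKM there, against at most 6.07 FPKM in brown fat. Brown fat and white fat carried their own fat genes, Ucp1 at 3386 to 4108 FPKM in brown fat and Lep at 213 to 223 FPKM in white fat. Of the skeletal muscle markers, Mb, Ckm and Acta1 were listed at 0 in all 3 soleus libraries. Markers of mesothelium, the lining of the body cavity, summed to 1.20 to 1.42 FPKM in brown fat, against 67.6 to 101 FPKM in white fat and 0.245 to 2.11 FPKM in soleus. Keratinocyte markers summed to at most 3.70 FPKM in any library, and Schwann cell markers to 50.4 to 63.1 FPKM in brown fat against at most 1.35 FPKM in white fat and 25.6 FPKM in soleus. In each tissue 1 library had the highest levels of marker genes of another tissue. It was brown fat replicate 2 for muscle genes, white fat replicate 3 for brown fat genes and soleus replicate 1 for fat genes. Where that RNA came from was not tested. The differences below are also given without these 3 libraries where that matters. In bulk tissue, fewer cells of a type and less RNA per cell cannot be told apart.

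The start regions of 4 of the 6 measured genes were in a RefSeq table of promoters on the build GRCm38.p6, which is not the build mm9 of the deposited values, so they serve as sequence alone. All 4 are shown, since only Fabp4 and Fabp5 had no entry there. Each runs from 250 bases before to 50 bases after the annotated start, 5′ to 3′ on the strand of the gene, and capitals mark matches on either strand to AGGTCA, the core site that nuclear receptors such as the PPARs bind, to its paired form (the site, any 1 base and the site again), to TATAAA or to CCAAT.
Cd36, chr5:17835847-17836146, minus strand: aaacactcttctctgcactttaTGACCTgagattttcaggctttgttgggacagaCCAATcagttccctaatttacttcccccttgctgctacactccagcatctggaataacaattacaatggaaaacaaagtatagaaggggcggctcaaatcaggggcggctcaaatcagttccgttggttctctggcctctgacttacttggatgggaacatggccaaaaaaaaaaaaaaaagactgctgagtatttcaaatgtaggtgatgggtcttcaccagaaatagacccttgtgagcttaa
Slc27a2, chr2:126552774-126553073, plus strand: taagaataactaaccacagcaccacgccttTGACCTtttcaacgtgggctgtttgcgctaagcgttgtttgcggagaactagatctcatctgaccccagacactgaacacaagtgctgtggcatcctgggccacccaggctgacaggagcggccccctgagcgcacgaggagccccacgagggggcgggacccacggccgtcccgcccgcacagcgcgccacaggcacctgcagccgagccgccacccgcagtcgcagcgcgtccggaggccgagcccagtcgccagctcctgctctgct
Slc27a4, chr2:29802384-29802683, plus strand: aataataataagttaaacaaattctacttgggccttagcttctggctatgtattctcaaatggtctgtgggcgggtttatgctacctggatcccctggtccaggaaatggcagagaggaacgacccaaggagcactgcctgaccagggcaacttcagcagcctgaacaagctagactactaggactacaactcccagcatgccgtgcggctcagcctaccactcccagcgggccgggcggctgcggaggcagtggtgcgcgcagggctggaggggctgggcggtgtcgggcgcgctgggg
Fabp3, chr4:130308488-130308787, plus strand: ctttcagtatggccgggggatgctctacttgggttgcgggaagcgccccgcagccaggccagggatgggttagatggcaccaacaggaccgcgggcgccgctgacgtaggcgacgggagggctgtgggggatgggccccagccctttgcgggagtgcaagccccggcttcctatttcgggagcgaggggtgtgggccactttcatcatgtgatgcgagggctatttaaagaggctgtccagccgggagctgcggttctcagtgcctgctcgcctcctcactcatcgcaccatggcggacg
The core site was found once in Cd36 and once in Slc27a2, in both on the opposite strand and so read as TGACCT above, from position -228 in Cd36 and -220 in Slc27a2 relative to the start. It was in 16.3% of the 32851 promoters of that table. CCAAT was found once, in Cd36, and in 37.4% of all promoters. The paired form, in 0.0396% of all promoters, and TATAAA, in 13.6%, were in none of these windows, which says only that these letters are not in them. The windows of Slc27a2 and Fabp3 held 25 and 22 CG pairs and that of Slc27a4 held 14, against 3 in Cd36 and a median of 7 over the table. The matrix row of Cd36 joins several RefSeq transcripts, and only this window was searched for it, so any other start of that gene is not covered.

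Cd36 had the highest level in both fats among the 5 genes not listed at 0 in a tissue, Fabp4 being left out. It stood at 684, 677 and 630 FPKM in brown fat, 970, 1117 and 960 FPKM in white fat and 232, 212 and 207 FPKM in soleus. The 3 tissues did not overlap, with white fat highest and soleus lowest. By mean FPKM Cd36 ranked 84th of all genes in brown fat, 19th in white fat and 210th in soleus. Brown fat was below white fat on the log2(FPKM + 1) scale (log2 fold change -0.61, SE 0.10, limma with Benjamini-Hochberg adjustment, adjusted p = 0.00027). It was higher than in soleus by 1.61 log2 units in brown fat (SE 0.10, limma adjusted p = 8.3e-08) and by 2.22 in white fat (SE 0.10, limma adjusted p = 5.3e-09). The difference between the fats kept its sign under 4 other scalings but grew to -1.20 when each library was rescaled to a common total (TPM) and to -1.75 with quantile normalization. As a share of all FPKM in a library, Cd36 held 0.197% ± 0.00529 in brown fat, against 0.456% ± 0.0581 in white fat and 0.0663% ± 0.00793 in soleus (SD, n = 3). Genes listed at 0 in a whole tissue add nothing to its totals, so a share may be too high. Among them were Lpl and Cfd in white fat, Fabp4 in both fats, and Mb, Ckm and Acta1 in soleus. The TPM value rests on the same totals.

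**Figure D1:**
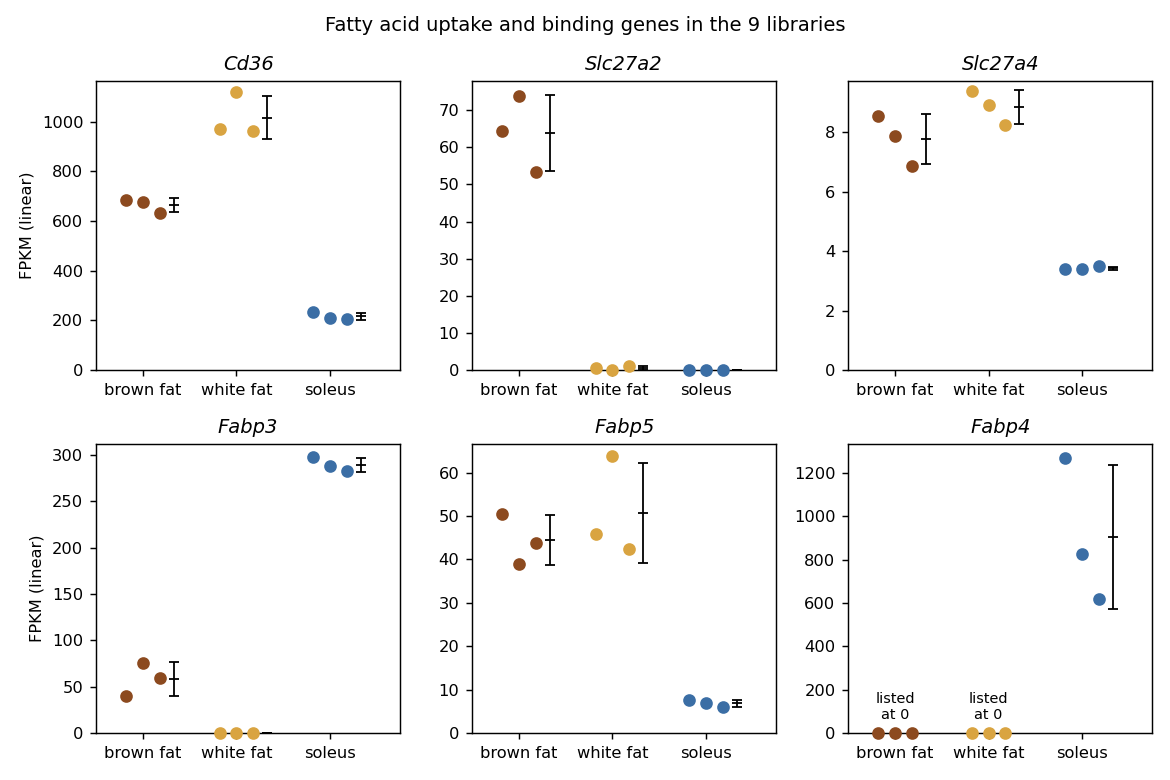
FPKM of the 6 measured genes on linear axes, 1 panel per gene, with brown fat, white fat and soleus from left to right. Points are the 3 libraries of a tissue and the black mark beside them is the mean ± SD. Cd36 is highest in white fat at 960 to 1117 FPKM, Slc27a2 is high in brown fat alone, Fabp3 is highest in soleus, and Fabp4 is listed at 0 in both fats.

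Macrophages and endothelial cells also make CD36, and their markers differed between the tissues. The 8 measured of 9 macrophage markers summed to 46.3 to 54.1 FPKM in brown fat and 499.7 to 609.9 FPKM in white fat. In soleus they summed to 35.0 to 48.9 FPKM. All 8 passed as lower in brown fat when the fats were compared, beside 34.8% of all genes tested. The 7 measured of 8 endothelial markers summed to 99.6 to 103 FPKM in brown fat and 47.0 to 73.4 FPKM in white fat. In soleus they summed to 49.8 to 55.5 FPKM. Of the 7, 5 passed as higher in brown fat when the fats were compared, beside 38% of all genes tested. Calls of these markers under other scalings are not given. None of the markers in these lists was listed at 0 in a whole tissue. Among the white fat libraries, replicate 2 had the highest Cd36, the highest Fabp5 and the highest endothelial sum but the lowest macrophage sum. The part of these cells in the Cd36 and Fabp5 levels was not tested.

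The measured transport protein genes parted. Slc27a2 encodes FATP2, a very long-chain acyl-CoA synthetase best known from liver and kidney. It stood at 64.4, 73.8 and 53.4 FPKM in brown fat, 0.583, 0.0423 and 1.08 FPKM in white fat and 0.0580, 0 and 0.0132 FPKM in soleus. Brown fat lay far above both other tissues, whose libraries overlapped. The log2 fold change was 5.41 over white fat (SE 0.21, limma adjusted p = 3.9e-09) and 5.97 over soleus (SE 0.21, limma adjusted p = 6.9e-10). The size rests on the pseudocount, since the soleus values are near the lowest the libraries can show, and it was 3.77 over soleus with a pseudocount of 5 and 9.03 with 0.1. Over white fat it was 3.62 with a pseudocount of 5 and 7.03 with 0.1. Slc27a2 passed the filter of 1 FPKM in 3 libraries through brown fat and white fat replicate 3, the other libraries being lower. Without the 3 libraries with the highest levels of another tissue's genes it missed that filter. The remaining brown fat libraries stood at 64.4 and 53.4 FPKM against 0.583 and 0.0423 FPKM in white fat.

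White fat and soleus could not be parted firmly for Slc27a2. Their log2 fold change of 0.56 (SE 0.21, adjusted p = 0.027 in limma) rested on values that overlapped, and it lost the call in 6 of 20 alternatives. The adjusted p was 0.11 without white fat replicate 3, 0.070 without white fat replicate 1, 0.068 without soleus replicate 2 and 0.062 without soleus replicate 3. It was 0.20 with a pseudocount of 5 and 0.056 with no filter, over a range of 0.00041 to 0.20. White fat replicate 3 was also the white fat library with the most Ucp1, the uncoupling protein gene of brown fat, at 7.81, 1.45 and 35.7 FPKM in replicates 1, 2 and 3. Relative to the brown fat mean, Slc27a2 in those libraries stood at 0.913%, 0.0661% and 1.70%, Ucp1 at 0.212%, 0.0393% and 0.968%, and Cidea, a lipid droplet gene of brown fat, at 0.328%, 0.161% and 1.21%. All 3 genes were lowest in replicate 2 and highest in replicate 3, and the part of brown fat RNA in the white fat values of Slc27a2 was not tested.

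Slc27a4, which encodes FATP4, an acyl-CoA synthetase of the endoplasmic reticulum, was low in every tissue. It stood at 8.56, 7.87 and 6.88 FPKM in brown fat, 9.37, 8.93 and 8.23 FPKM in white fat and 3.40, 3.40 and 3.49 FPKM in soleus. The fats overlapped and soleus lay below both. Slc27a4 was 0.98 log2 units higher in brown fat than in soleus (SE 0.08, limma adjusted p = 9.2e-07) and 1.15 higher in white fat than in soleus (SE 0.08, limma adjusted p = 1.9e-07). With a pseudocount of 5 these values were 0.60 and 0.71, the first was 0.61 with median of ratios scaling and 0.63 with quantile normalization, and the second was 1.82 with TPM rescaling. Between brown and white fat the difference of -0.17 (SE 0.08, limma adjusted p = 0.088) missed the threshold of 0.05. It passed with TPM rescaling (-0.75, adjusted p = 3e-05), upper quartile scaling (-0.27, 0.0066) and quantile normalization (-0.22, 0.021), and without brown fat replicate 1 (-0.23, 0.031), over a range of 3e-05 to 0.32.

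Of the summed FPKM of Slc27a2 and Slc27a4, Slc27a2 held 89.1% ± 1.13 in brown fat, against 6.00% ± 5.59 in white fat and 0.685% ± 0.880 in soleus (SD, n = 3). This share is taken within a library and does not move with its scaling. Slc27a2 thus made up most of the pair in brown fat, and Slc27a4 did in white fat and soleus. In white fat the share of Slc27a2 spread from 0.471% in replicate 2 to 11.7% in replicate 3.

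**Figure D2:**
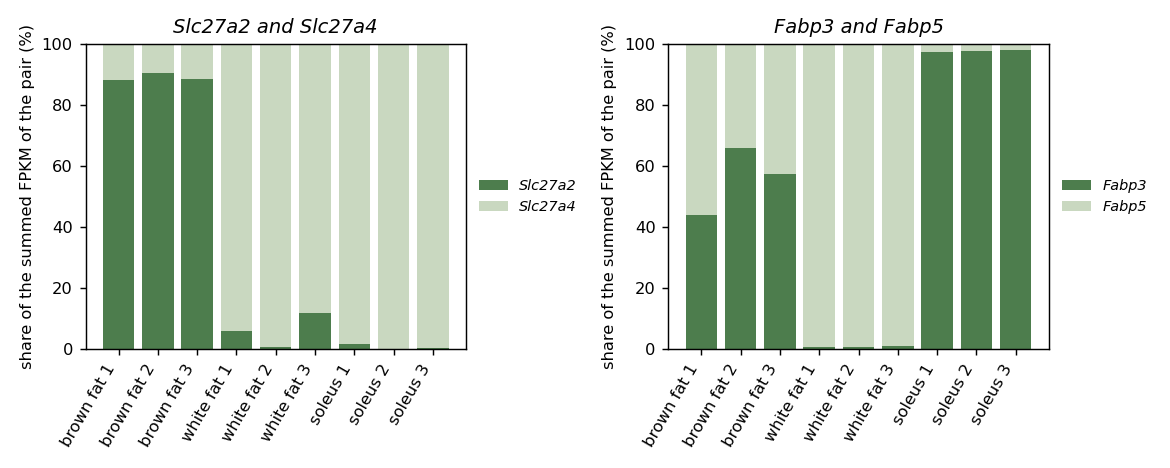
Shares of a pair of genes in their summed FPKM, in percent, for each of the 9 libraries, with brown fat at the left and soleus at the right. In the left panel Slc27a2 (dark) holds 88.3% to 90.4% in brown fat, and in the right panel Fabp3 (dark) holds 97.5% to 98.0% in soleus, 0.486% to 1.02% in white fat and 44.0% to 66.0% in brown fat.

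Of the binding proteins, Fabp3 separated the tissues that burn fatty acids from white fat. It stood at 39.7, 75.9 and 58.9 FPKM in brown fat, 0.298, 0.312 and 0.437 FPKM in white fat and 297, 288 and 283 FPKM in soleus. No library overlapped with another tissue. Fabp3 had a log2 fold change of 5.41 in brown against white fat (SE 0.18, limma adjusted p = 1.7e-09), a value that was 3.52 with a pseudocount of 5 and 6.98 with 0.1. It was lower in brown fat than in soleus (log2 fold change -2.34, SE 0.18, limma adjusted p = 4.2e-07) and lower in white fat than in soleus (log2 fold change -7.75, SE 0.18, limma adjusted p = 3.7e-11). The size of the last difference also rests on the pseudocount, being -5.78 with 5 and -9.35 with 0.1. Without the 3 libraries with the highest levels of another tissue's genes the differences of Fabp3, in the order above, were 5.24, -2.54 and -7.78. A processed pseudogene of Fabp3 is annotated, and reads that fit both copies may have been divided or dropped.

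The brown fat libraries differed in Fabp3 by up to 1.91 times, more than in Cd36 (1.09), Slc27a2 (1.38), Slc27a4 (1.24) or Fabp5 (1.29). Of 6 muscle genes followed across libraries, 5 had the same order, lowest in replicate 1 and highest in replicate 2, with the fast troponin gene Tnnc2 at 7.05, 54.8 and 26.3 FPKM and Actn2, a gene of the Z-disc, at 0.215, 1.00 and 0.767 FPKM. Relative to the soleus mean, Tnnc2 stood at 0.0690%, 0.537% and 0.258% in those libraries and Actn2 at 0.0214%, 0.0995% and 0.0761%. On the same scale Fabp3 stood at 13.7%, 26.2% and 20.3%. The exception was Myl3, a slow myosin light chain gene, at 1.49, 1.68 and 1.42 FPKM, highest in replicate 2 but lowest in replicate 3. Mb, Ckm and Acta1, listed at 0 in soleus, had the order of the 5 genes in brown fat, with Ckm at 4.87, 40.8 and 23.1 FPKM. The part of muscle RNA in the brown fat values of Fabp3 was not tested. Tnnc2 was taken after its values were seen.

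**Figure D3:**
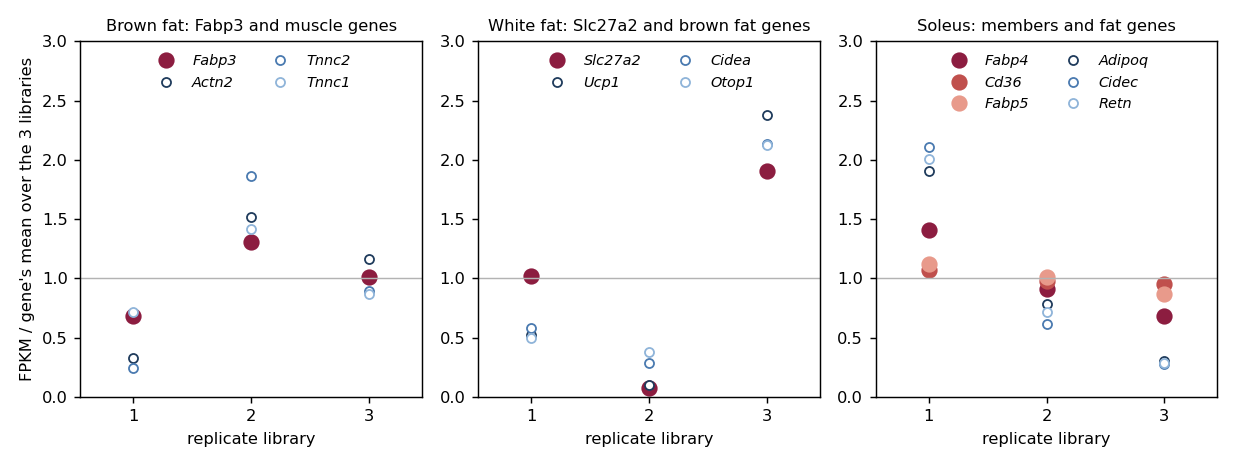
FPKM divided by the gene's mean over the 3 libraries of a tissue, for each replicate library, in brown fat, white fat and soleus. Filled points are Fabp3 in brown fat, Slc27a2 in white fat, and Fabp4, Cd36 and Fabp5 in soleus, and open points are genes of another tissue. In each panel the library with most of those genes is also the one with most of the members shown. In soleus, however, Cd36 and Fabp5 spread by 1.12 and 1.29 times against 6.23 for Adipoq. Fabp3 in soleus, not shown here, was highest in the same library, and Slc27a4 was not.

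Fabp5 was shared by both fats. It stood at 50.4, 39.0 and 43.7 FPKM in brown fat, 45.8, 63.8 and 42.4 FPKM in white fat and 7.63, 6.90 and 5.89 FPKM in soleus. The fats overlapped and soleus lay below both. Fabp5 was higher than in soleus by 2.54 log2 units in brown fat (SE 0.15, limma adjusted p = 5.6e-08) and by 2.71 in white fat (SE 0.15, limma adjusted p = 2.7e-08). Between the fats the difference of -0.17 (SE 0.15, limma adjusted p = 0.34) did not pass. It passed with TPM rescaling (-0.76, adjusted p = 0.0025) and quantile normalization (-0.44, 0.042), and its sign turned without white fat replicate 2 (0.0040, adjusted p = 0.98), over a range of 0.0025 to 0.98. A processed pseudogene of this gene, Fabp5l2, is also annotated.

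Of the summed FPKM of Fabp3 and Fabp5, Fabp3 held 55.8% ± 11.1 in brown fat, against 0.718% ± 0.275 in white fat and 97.7% ± 0.234 in soleus (SD, n = 3). Brown fat thus held both forms, with Fabp3 between 44.0% and 66.0% of the pair, white fat almost Fabp5 alone and soleus almost Fabp3 alone, as far as these 2 forms go. This pair of shares was chosen after the values were seen, since Fabp4 could not enter them.

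Fabp4, the binding protein gene that adipocytes are best known for, was listed at 0 FPKM in all 3 brown fat and all 3 white fat libraries. In soleus it stood at 1272, 827 and 617 FPKM, the highest of the 6 genes there and 50th of all genes by its mean of 905 ± 334 FPKM (SD, n = 3). Exact zeros in a gene of this kind may be failed estimates, so no level in fat and no fold change is given. The same holds for Lpl, the lipase gene of the capillary wall, which was listed at 0 in white fat. So was Cfd, the adipsin gene of adipocytes, which stood at 2044 to 2145 FPKM in brown fat. The other 4 measured of 7 adipocyte markers were above 0 in both fats, with Adipoq at 906 to 1061 FPKM in brown fat and 2573 to 3067 FPKM in white fat.

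Within soleus, Fabp4 had the order of the fat genes, highest in replicate 1 and lowest in replicate 3. Adipoq, the adiponectin gene, stood at 77.1, 31.8 and 12.4 FPKM there and Cidec, a lipid droplet gene, at 45.2, 13.2 and 6.03 FPKM. The 5 measured of 7 adipocyte markers summed to 486, 226 and 110 FPKM in replicates 1, 2 and 3. From the highest to the lowest library Fabp4 differed by 2.06 times, Adipoq by 6.23 times and Cidec by 7.50 times. Endothelial cells also make Fabp4, and the endothelial sum of 49.8, 50.6 and 55.5 FPKM ran the other way. Cd36 and Fabp5 were highest in soleus replicate 1 too, by 1.12 and 1.29 times over replicate 3. Fabp3, the muscle form, was also highest in soleus replicate 1 and lowest in replicate 3, at 297, 288 and 283 FPKM. Slc27a4 was instead highest in replicate 3. Neither the part of fat nor that of endothelium in the soleus values was tested. Without soleus replicate 1, brown fat replicate 2 and white fat replicate 3, Cd36 was 1.64 log2 units higher in brown fat than in soleus and Fabp5 was 2.70 higher.

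Across the 5 genes not listed at 0 in a tissue, brown fat differed from white fat in 3, with Slc27a2 and Fabp3 higher and Cd36 lower. Over all 9913 genes tested, 72.8% passed in this comparison, 38% higher and 34.8% lower, so 3 of 5 is no larger share than that background. Brown fat differed from soleus in all 5, with 4 higher and Fabp3 lower, beside 78.5% of all genes, 52.9% higher and 25.6% lower. White fat also differed from soleus in all 5, with 4 higher and Fabp3 lower, beside 84.2% of all genes, 54.5% higher and 29.7% lower, though Slc27a2 was held there only in part, as given above. The comparisons with soleus share its libraries. The median log2 fold change of the 5 genes was -0.17, 1.61 and 1.15 in these comparisons, and that of all genes was 0.03, 0.29 and 0.35. TPM rescaling moved the median of all genes between the fats to -0.50, and relative to that median Cd36 stood at -0.71, Slc27a4 at -0.26 and Fabp5 at -0.26, against -0.64, -0.20 and -0.20 without rescaling.

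**Figure D4:**
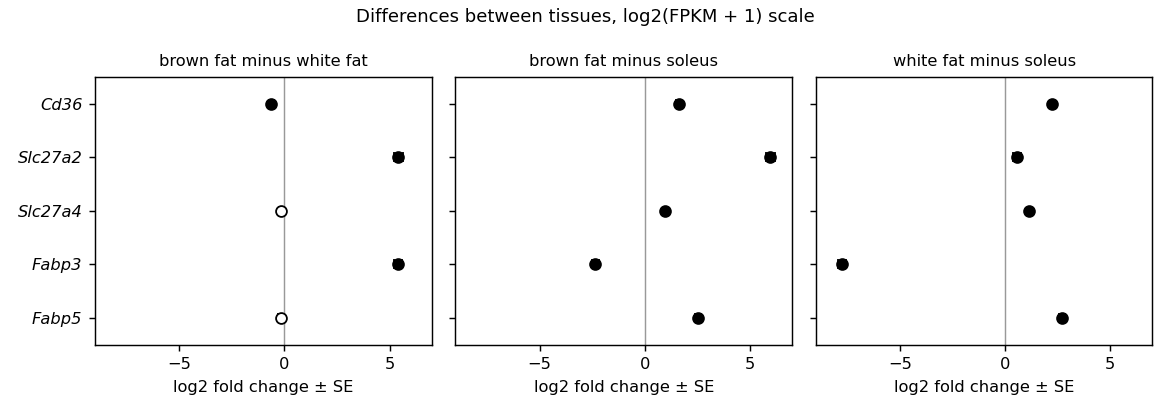
Log2 fold changes on the log2(FPKM + 1) scale for the 5 genes without a tissue listed at 0, in brown fat minus white fat, brown fat minus soleus and white fat minus soleus. Bars are the limma SE, which in most cases is smaller than the point, and filled points passed an adjusted p of 0.05. Fabp3 lies at 5.41 over white fat in brown fat and at -7.75 in white fat minus soleus, and the open points are Slc27a4 and Fabp5 between the fats.

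Genes with the most similar tissue profile were found from the root mean square difference of centred log2(FPKM + 1) values over the 9 libraries, among tested genes not listed at 0 in a tissue. For Cd36 they were Ptpra, a receptor phosphatase gene, at 0.08 and Jazf1, a zinc finger gene, at 0.09 log2 units. For Slc27a2 they were Aspg at 0.20 and the proton channel gene Otop1 at 0.27, and for Slc27a4 Srm, the spermidine synthase gene, and Tax1bp1, both at 0.05. For Fabp3 they were Ttc41 at 0.37 and the tubulin gene Tuba8 at 0.57, and for Fabp5 Phka2, a phosphorylase kinase subunit gene, and Cnnm2, both at 0.17. Aspg averaged 55.9 ± 5.88 FPKM in brown fat, 0.357 ± 0.269 FPKM in white fat and 0.0876 ± 0.0457 FPKM in soleus (SD, n = 3). Tuba8 averaged 34.7 ± 3.18, 0.438 ± 0.337 and 125 ± 10.1 FPKM in brown fat, white fat and soleus. Adding 1 to FPKM shrinks the ratios of low genes, so a low gene can be near on this scale alone. Jazf1, at a mean of 0.335 FPKM in soleus, was 8.71 times higher in brown fat and 16.4 times in white fat. For Cd36 these ratios of means were 3.06 and 4.68. Cnnm2 was 8.86 and 11.5 times higher than in soleus, against 6.52 and 7.44 times for Fabp5. The distances describe 3 tissues of 3 libraries and no more.

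CD36 has a pair of relatives, the lipoprotein receptor gene Scarb1 and the lysosomal receptor gene Scarb2. Scarb1 had the order of Cd36, at 25.9 ± 1.62 FPKM in brown fat, 40.7 ± 4.50 FPKM in white fat and 4.38 ± 0.462 FPKM in soleus (SD, n = 3). Its log2 fold change was -0.63 in brown against white fat (SE 0.10, limma adjusted p = 0.00015) and 2.32 in brown fat against soleus (SE 0.10, limma adjusted p = 2.6e-09). The first became -1.23 with TPM rescaling. Scarb2 was instead highest in brown fat, at 48.9 ± 1.68 FPKM against 31.6 ± 0.237 FPKM in white fat and 22.4 ± 1.29 FPKM in soleus (SD, n = 3). Its log2 fold change between the fats was 0.61 and became 0.04 with TPM rescaling.

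Of 13 other genes of the FATP family and of the FABP fold, all had a row, but few were high enough to enter the tests. Rbp7, a retinol binding gene of that fold, averaged 26.2 ± 9.26 FPKM in brown fat, 34.2 ± 10.9 FPKM in white fat and 11.3 ± 2.64 FPKM in soleus (SD, n = 3). It was higher in brown fat than in soleus by 1.11 log2 units (SE 0.26, limma adjusted p = 0.0024), and its log2 fold change of -0.38 between the fats did not pass (SE 0.26, limma adjusted p = 0.21). With TPM rescaling that difference was -0.98 and passed (adjusted p = 0.01), and with median of ratios scaling the difference from soleus was 0.69 (adjusted p = 0.036).

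The step after uptake is the joining to coenzyme A. Of 13 genes of the long-chain acyl-CoA synthetases and acyl-CoA binding proteins, 12 had a row. In brown against white fat 6 of 9 counted genes rose and none fell, beside 38% and 34.8% of all genes, with a median of 0.50 log2 units, but with TPM rescaling 2 rose and 3 fell. Acsl5 rose most, at 166 ± 14.5 FPKM in brown fat and 20.7 ± 0.776 in white fat (log2 fold change 2.94, SE 0.09, limma adjusted p = 1.1e-09), and Acsl1, the main synthetase of fat, stood at 626 ± 54.4 against 179.5 ± 2.38 FPKM (log2 fold change 1.79, SE 0.10, limma adjusted p = 6.3e-08). The difference in Acsl1 was 0.87 with quantile normalization. In brown fat against soleus 7 of 9 rose and 2 fell, beside 52.9% and 25.6% of all genes, and Acsl6 was among the lower ones at 0.0190 ± 0.0246 FPKM in brown fat, against 24.5 ± 2.60 FPKM in soleus (SD, n = 3). Dbi, which encodes the acyl-CoA binding protein, was the most abundant at 3621 ± 151 FPKM in brown fat, 2551 ± 221 FPKM in white fat and 375 ± 52.6 FPKM in soleus. Its difference of 0.51 between the fats turned to -0.08 with TPM rescaling and -0.24 with quantile normalization. Acbd6, another acyl-CoA binding gene, was lower in brown fat than in soleus (log2 fold change -0.37, SE 0.15, limma adjusted p = 0.043), a value that reached -0.80 with median of ratios scaling.

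Of 12 genes that deliver fatty acids at the capillary wall, 11 had a row. In brown against white fat 8 of 10 counted rose and none fell, beside 38% and 34.8% of all genes, with a median of 0.44 log2 units, but with TPM rescaling 4 rose and 2 fell, with upper quartile scaling 5 rose, and without the 3 libraries named above 6 rose. Vldlr, a receptor gene for triglyceride-rich lipoproteins, stood at 38.9 ± 2.13 against 10.1 ± 1.26 FPKM (log2 fold change 1.85, SE 0.09, limma adjusted p = 2.1e-08) and Flt1, the receptor gene of VEGF-B, at 10.8 ± 0.636 against 3.50 ± 1.13 FPKM (log2 fold change 1.42, SE 0.15, limma adjusted p = 7.7e-06). Endothelial markers were higher in brown fat too, 5 of 7, with the VEGF receptor gene Kdr at 19.4 ± 1.16 against 6.17 ± 1.43 FPKM, and the endothelial sum was 99.6 to 103 FPKM in brown fat against 47.0 to 73.4 FPKM in white fat. The part of endothelium in the capillary genes was not tested. In brown fat against soleus 8 of 11 rose and 1, the endothelial factor gene Meox2, fell, beside 52.9% and 25.6% of all genes, and all 7 endothelial markers were higher in brown fat. With upper quartile or median of ratios scaling 2 fell. Angptl4, which encodes an inhibitor of lipoprotein lipase, was 3.56 log2 units higher (SE 0.25, limma adjusted p = 2.3e-07) and Lmf1, a gene for maturation of that lipase, 1.88 higher (SE 0.09, limma adjusted p = 6.4e-09). Lpl stood at 1085 ± 142 FPKM in brown fat, against 518 ± 66.8 FPKM in soleus (SD, n = 3), with 1.07 log2 units between them (SE 0.11, limma adjusted p = 6.4e-06) and 0.62 with median of ratios scaling. In white fat against soleus 5 of 10 rose and 5 fell, but with TPM rescaling 6 rose and 1 fell, beside 54.5% and 29.7% of all genes.

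Genes of caveolae and of CD36 handling differed in both directions. Of 12, all measured, 3 rose and 6 fell in brown against white fat, with a median of -0.52 log2 units. Over all genes 38% rose and 34.8% fell, and the 72.8% called in all is near the 9 of 12 called here. With TPM rescaling 1 rose and 11 fell, and 1 rose and 6 fell without the 3 libraries named above. Cav1, the caveolin gene of adipocytes and endothelium, averaged 294 ± 18.5 FPKM in brown fat, 1059 ± 83.6 FPKM in white fat and 51.8 ± 11.8 FPKM in soleus (SD, n = 3), the order of Cd36. Its log2 fold change was -1.84 in brown against white fat (SE 0.14, limma adjusted p = 6.8e-07) and 2.51 in brown fat against soleus (SE 0.14, limma adjusted p = 3.7e-08). The first became -2.92 with quantile normalization. Cav2 had the same log2 fold change of -1.84 between the fats (SE 0.15, limma adjusted p = 9.4e-07). Lypla1, a depalmitoylase gene, was higher in brown fat, at 70.1 ± 3.36 against 29.2 ± 1.38 FPKM (log2 fold change 1.24, SE 0.08, limma adjusted p = 1.3e-07), which became 0.67 with TPM rescaling. Zdhhc5, a palmitoyltransferase gene that acts on CD36, differed by 0.29, which turned to -0.27 with TPM rescaling. Against soleus, 8 of the 12 rose in brown fat and 2 fell, beside 52.9% and 25.6% of all genes, but 5 fell with median of ratios scaling and 4 with upper quartile scaling or quantile normalization. Those 2 were the kinase gene Fyn at 2.05 ± 0.223 against 2.79 ± 0.344 FPKM and Got2 at 5.38 ± 0.947 against 133 ± 13.7 FPKM. Got2 encodes the mitochondrial aspartate aminotransferase, a protein also described at the cell surface as a fatty acid binding protein.

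The PPARs and their partners switch on many of these genes. Of 12 such regulators 11 had a row, and in brown against white fat 8 rose and 1, Rxra, fell, beside 38% and 34.8% of all genes, with a median of 1.00 log2 units, while with TPM rescaling 6 rose and 2 fell, and without the 3 libraries named above 5 rose and 1 fell. Ppara, the PPAR of fatty acid oxidation, averaged 83.3 ± 3.64 FPKM in brown fat, 1.46 ± 0.189 FPKM in white fat and 8.43 ± 1.38 FPKM in soleus (SD, n = 3), the log2 fold change between the fats being 5.10 (SE 0.10, limma adjusted p = 2.1e-10). Ppargc1b, a coactivator gene, stood at 22.4 ± 2.29 FPKM in brown fat against 0.805 ± 0.115 FPKM in white fat (log2 fold change 3.69, SE 0.09, limma adjusted p = 3.3e-10). Rxra, the usual partner of the PPARs, stood at 15.9 ± 1.59 against 34.0 ± 0.923 FPKM (log2 fold change -1.05, SE 0.09, limma adjusted p = 1e-06), a difference of -1.67 with TPM rescaling. Pparg, the adipocyte PPAR, averaged 149 ± 4.55, 66.5 ± 3.21 and 2.28 ± 0.937 FPKM in brown fat, white fat and soleus, so that among the fats it was higher where Cd36 was lower. Its log2 fold change of 1.16 between the fats (SE 0.16, limma adjusted p = 7.4e-05) became 0.58 with TPM rescaling. In brown fat against soleus 7 of 11 rose and none fell, beside 52.9% and 25.6% of all genes, though 2 fell with median of ratios scaling. Pparg rose by 5.55 log2 units (SE 0.16, limma adjusted p = 1.7e-10) and Cebpa, another adipocyte factor, by 5.50 (SE 0.23, limma adjusted p = 3.3e-09). In white fat against soleus 4 rose and 4 fell, beside 54.5% and 29.7% of all genes, and 6 fell with upper quartile or median of ratios scaling. Of 5 fatty acid receptor genes 4 had a row and 1 entered the tests, Ffar2, a receptor for short-chain fatty acids. It averaged 0.927 ± 0.340 FPKM in brown fat, 18.9 ± 2.38 FPKM in white fat and 0.386 ± 0.409 FPKM in soleus (SD, n = 3), with a log2 fold change of -3.37 between the fats (SE 0.19, limma adjusted p = 6.1e-08).

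**Figure D5:**
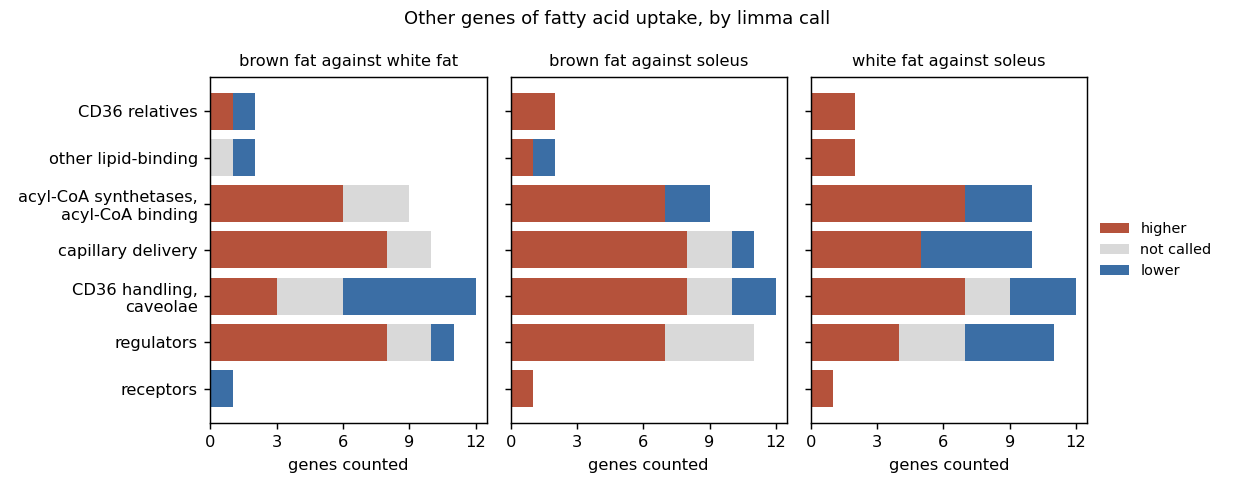
Number of genes in 7 lists of fatty acid handling that were higher, not called or lower in limma at an adjusted p of 0.05, in brown fat against white fat, brown fat against soleus and white fat against soleus. Genes listed at 0 in a tissue of the comparison are left out. In brown fat against white fat 8 of 10 capillary genes are higher and 6 of 12 genes of caveolae and CD36 handling are lower.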

How the data were processed

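The authors deposited 1 matrix of FPKM values, with 18401 rows named by RefSeq accessions and 9 library columns. Per the submitters' processing notes, the tools were TopHat 1.4.1 and Cufflinks 2.0.1 on mm9. TRIzol RNA and an Illumina RNA kit were used, per the labels' protocols. Whether counting used strand, and how reads fitting several places were treated, is not given in the sources used here.

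Accessions were matched to symbols with a RefSeq table (18305 rows) and a GENCODE table (38 rows), and the other rows, 0.0339% to 0.360% of a library's FPKM, were left out. Rows of 1 symbol were summed, giving 17753 genes. All 9 libraries entered 1 limma fit (limma 3.58.1, R 4.3.3) of log2(FPKM + 1) that allowed the variance to follow the mean and had 6 residual degrees of freedom, on 9913 genes at 1 FPKM or more in at least 3 libraries. Tests were two-sided, with Benjamini-Hochberg adjustment over all genes of a comparison and a threshold of 0.05. Genes listed at 0 in a whole tissue were left out of counts and folds. A fold change on this scale understates that of low genes. The fit was checked on simulated data.

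The members, gene lists and tests were chosen with earlier results of these data known. Named from each list were, for brown fat against each other tissue and in each direction, the 2 called genes that differed most, and the gene with the highest mean, beside the 2 genes nearest in profile to each member. A gene that this rule would name is not reported here. The cell type markers are textbook ones. Tried beside this fit were other pseudocounts, filters, scalings, a replicate block, pairs of tissues alone and each library left out.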

Additional observations from a re-analysis of the deposited data

How the results depend on the processing

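Of 66 recomputed counts of called members, 64 stayed within 1.5 times the count given. Those that did not were both in brown against white fat, 5 members in place of 3 with TPM rescaling and with quantile normalization. Over the libraries left out in turn the count ran from 3 to 4 there, stayed at 5 in brown fat against soleus and ran from 4 to 5 in white fat against soleus. Of 326 recomputed member differences, 313 kept their direction and side of the threshold, 6 gained a call, 6 lost one and 1 turned, Fabp5 between the fats, which ran from -0.29 to 0.0040 over the libraries left out in turn and was highest without white fat replicate 2. The cause was not tested. The replicate number as a block left all 3 counts at 3, 5 and 5. Deviations of libraries of the same number had correlations across genes of -0.220 to 0.0774 over 9 pairs. Those of different numbers ran from -0.189 to 0.361. With 3 libraries a tissue, this check cannot tell whether libraries of the same number share a mouse. Leaving out the 3 libraries with the highest levels of another tissue's genes, a choice made after their values were seen, gave 2, 4 and 4. The counts fell because Slc27a2 then missed the filter. That choice left 2 libraries a tissue. Slc27a2 missed the filter also with white fat and soleus fitted alone, which gave no value. The number of fragments behind a value is unknown, so levels under 0.1 FPKM, as for Slc27a2 in soleus, are weakly measured, and a gene at 0 gives no upper limit.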
